A study of Drosophila melanogaster with 2 samples.

Results

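The nuclear genes of the respiratory chain were examined for peaks of Klumpfuss (Klu) in Drosophila melanogaster embryos. They were taken as the protein-coding genes on the main chromosome arms whose symbol starts with ND-, with COX and a digit, or with UQCR, ATPsyn or Sdh, which gave 88 of 13945 protein-coding genes. Chromatin immunoprecipitation with sequencing (ChIP-seq) had been carried out with an anti-GFP antibody on whole embryos of 0 to 24 h from the klu-GFP strain, which carries a klu-eGFP transgene. The 2 biological replicates form 1 group, no control library was analysed here, and the labels name no comparison. Whole embryos mix all tissues and stages of that day, so a peak cannot be placed in a cell type, and the sources used here do not name the promoter that drives the transgene. With positions, scores and signals of peaks but without read counts, library depth is unknown.

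Klu belongs to the EGR/WT1 family of zinc finger transcription factors. The respiratory chain sits in the inner mitochondrial membrane. Complex I takes electrons from NADH and complex II from succinate, complex III passes them to cytochrome c, and complex IV hands them to oxygen. The proton gradient that complexes I, III and IV build drives complex V, the ATP synthase. Most subunits are encoded in the nucleus and the rest in mitochondrial DNA, which the selection left out. In Drosophila several nuclear subunit genes also have a duplicated copy, named with an L, and many such copies are known to be expressed mainly in testis. The 88 genes comprised 40 of complex I, 8 of complex II, 9 of complex III, 16 of complex IV and 15 of complex V. They fell into 63 genes of standard subunits, 24 copies with an L in the symbol, and 1 assembly factor gene, Sdhaf3. Subunit genes with unrelated symbols, such as levy and cype of complex IV and blw of complex V, were not among the 88 and are described further below.

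A gene was counted as having a peak when the summit of a peak in the pooled thresholded list of the series, which holds 3087 peaks on the main arms, lay within 1 kb of one of its annotated starts. By this rule 13 of the 88 genes had a peak, a share of 14.8% (exact 95% interval 8.11 to 23.9%), against 16.1% of all protein-coding genes (2243 of 13945). The share is close to that of all genes, so the 88 genes as a whole did not stand apart. The 13 genes were ND-24, ND-42, ND-51, ND-ASHI, ND-MNLL, ND-MWFE and ND-SGDH of complex I, COX5A, COX5B, COX7B and COX8 of complex IV, and ATPsynCF6 and ATPsynE of complex V. Each had 1 peak of its own, and no peak was counted for more than 1 of them. Intervals on shares cover counting error over genes only, and genes are not independent.

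The sequences at 8 of these summits are shown as examples of a pattern described below, which 12 of the 13 had. The pattern is a peak in a short gap between starts of a respiratory chain gene and of a neighbour transcribed away from it. At COX5A both of these starts lie inside the annotated gene. The sequences were read from the reference genome (dm6, the BDGP release 6 assembly). They hold no annotated exon, and run 5′ to 3′ on the strand of the respiratory chain gene named. Capitals mark the longest stretch of A and T only, or the one nearest to the summit where several were equally long (COX5B, COX8 and ATPsynCF6). The windows lie at chrX:6679332-6679452 (ND-ASHI, minus strand), chr3R:22027481-22027572 (ND-42, plus strand), chr2L:6062841-6062961 (ND-51, minus strand), chr3L:12138606-12138726 (ND-SGDH, minus strand), chr3R:11819465-11819547 (COX5A, plus strand), chr2L:6557503-6557601 (COX5B, plus strand), chr3L:21539474-21539594 (COX8, minus strand) and chr3R:23356113-23356233 (ATPsynCF6, minus strand).
ND-ASHI: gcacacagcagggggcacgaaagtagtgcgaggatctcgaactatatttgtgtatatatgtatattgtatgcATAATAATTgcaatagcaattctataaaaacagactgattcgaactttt
ND-42: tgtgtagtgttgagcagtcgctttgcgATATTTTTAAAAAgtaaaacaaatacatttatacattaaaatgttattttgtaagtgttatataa
ND-51: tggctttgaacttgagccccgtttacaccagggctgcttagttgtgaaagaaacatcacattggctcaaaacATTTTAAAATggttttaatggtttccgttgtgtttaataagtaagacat
ND-SGDH: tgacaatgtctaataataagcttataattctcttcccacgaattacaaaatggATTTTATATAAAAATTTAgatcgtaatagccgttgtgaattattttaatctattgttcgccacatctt
COX5A: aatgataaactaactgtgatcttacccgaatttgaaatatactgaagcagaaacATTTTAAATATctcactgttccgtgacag
COX5B: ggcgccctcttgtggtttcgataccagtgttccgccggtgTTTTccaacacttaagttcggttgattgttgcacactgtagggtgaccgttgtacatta
COX8: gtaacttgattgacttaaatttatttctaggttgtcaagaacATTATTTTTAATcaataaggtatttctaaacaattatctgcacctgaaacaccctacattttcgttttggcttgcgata
ATPsynCF6: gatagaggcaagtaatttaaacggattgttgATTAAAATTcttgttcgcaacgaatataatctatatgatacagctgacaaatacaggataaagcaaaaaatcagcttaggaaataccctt
The marked stretch covered the summit itself at ND-42, ND-SGDH and COX5A, where it was 13, 18 and 11 bp long. At COX5B it was only 4 bp long, and the surrounding sequence was the richest in G and C of all 13 summits.

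All 13 peaks belonged to standard subunits, and complexes I, IV and V held them. Of the 34 standard subunits of complex I, 7 had a peak (20.6%, exact 95% interval 8.70 to 37.9%). Of the 8 of complex IV, 4 had a peak (50%, interval 15.7 to 84.3%), and of the 11 of complex V, 2 did (18.2%, interval 2.28 to 51.8%). None of the 4 standard subunits of complex II, the succinate dehydrogenase, and none of the 6 of complex III, the cytochrome bc1 complex, had one, with upper bounds of 60.2% and 45.9%. These intervals overlap each other widely, so the complexes were not shown to differ. Over all standard subunits 13 of 63 had a peak (20.6%, interval 11.5 to 32.7%), an interval that includes the 16.1% of all genes. None of the 24 copies had a peak (upper bound 14.2%), a count to be read beside their neighbours and a ranked peak at COX7AL2, both described below. Complex IV had the highest share, and 3 of its 4 peaks were in the list of replicate 2 alone.

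**Figure D1:**
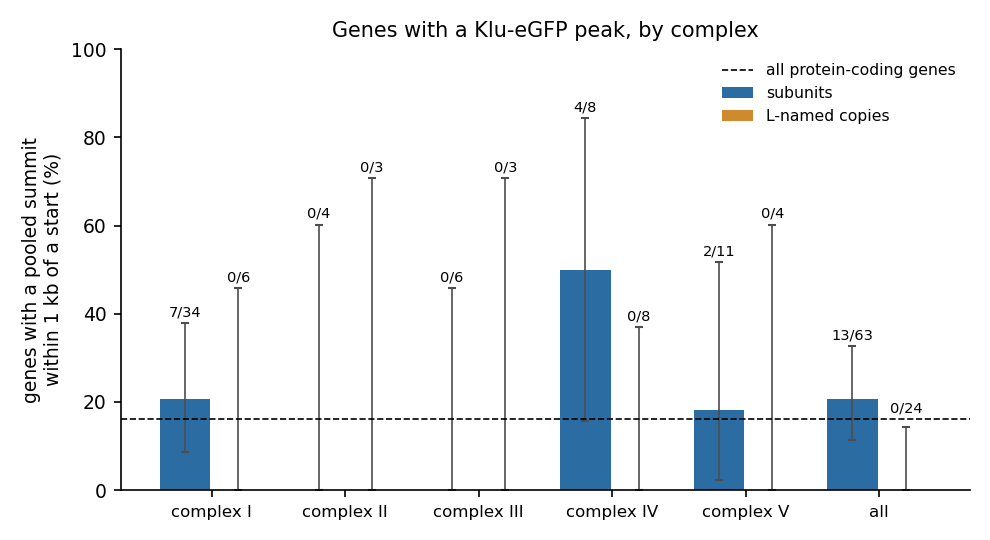
Share of genes with a pooled summit within 1 kb of a start (y axis, percent) for each complex and for all complexes, with standard subunits in blue and L-named copies in orange. Bars are shares, error bars exact 95% intervals, and the counts stand above them; the dashed line is the 16.1% of all protein-coding genes. Complexes II and III and all copies are at 0.

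In complex I the peaks were found at genes of both of its arms. ND-51 and ND-24 encode the flavin-binding and an iron-sulfur subunit of the module that oxidises NADH. At ND-24 (FBgn0030853, X:17632089-17633509, plus strand) the pooled signal was 247.5, with 90.9 in replicate 1 and 164 in replicate 2. Its summit lay 76 bp downstream of one start, in the 5′ UTR, and 156 bp upstream of the other. At ND-51 (FBgn0031771, 2L:6060842-6062757, minus strand) the pooled signal was 150.6, with 67.3 in replicate 1 and 89.2 in replicate 2, and the summit lay 144 bp upstream of the start. Both peaks were in the thresholded lists of both replicates and in the conservative list of the series. Signals are the deposited height per peak on a scale that the sources used here do not give, and a replicate's value comes from its own ranked list.

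The other 5 genes of complex I encode accessory subunits, which surround the catalytic core. ND-ASHI (FBgn0029888, X:6677262-6679118, minus strand) had the highest signal of the 13 genes, 296 in the pooled list, with 159.6 in replicate 1 and 143.2 in replicate 2. It was the only one of the 12 genes with a value in both replicates at which replicate 1 was the higher. Its summit, 274 bp upstream of the outermost start, lay nearer to a start of Fum1, the fumarase gene of the tricarboxylic acid cycle, at 248 bp, and in an intron of a longer Fum1 transcript. ND-MWFE (FBgn0085468, on arm 2R) followed with a pooled signal of 281.8, with 99.2 in replicate 1 and 176.2 in replicate 2. Its summit lay 202 bp upstream of its start but only 19 bp from that of TppII, which encodes a peptidase.

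ND-42 (FBgn0019957, 3R:22027709-22029393, plus strand) had a pooled signal of 167.9, with 37.5 in replicate 1 and 130.1 in replicate 2, and its peak was in the thresholded list of replicate 2 but not in that of replicate 1. The summit was 197 bp upstream of ND-42 and 32 bp from the start of Cchl, whose product attaches heme to cytochrome c. ND-SGDH (FBgn0011455, 3L:12137496-12138584, minus strand) had a pooled signal of 149.7, with 44.5 in replicate 1 and 118.2 in replicate 2. ND-MNLL (FBgn0029971, X:7893053-7893798, minus strand) had a pooled signal of 111.0, with 45.5 in replicate 1 and 68.6 in replicate 2. Their summits lay 82 and 89 bp upstream of their starts. The starts of ND-MNLL are annotated at the same bases as those of CG45089, so its peak belongs to both gene models alike. All 7 peaks of complex I were in the conservative list, and 6 of the 7 were in the lists of both replicates.

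In complex IV, the cytochrome c oxidase, the peaks were weaker and fewer were found again. COX5A (FBgn0019624, 3R:11819359-11820299, plus strand) had a pooled signal of 139.0, with 46.5 in replicate 1 and 94.7 in replicate 2, and was the only one of the 4 in the lists of both replicates and in the conservative list. COX8 (FBgn0263911, 3L:21538859-21539447, minus strand) had a pooled signal of 120.5 and 85.1 in replicate 2, and the ranked list of replicate 1 held no overlapping peak. COX5B (FBgn0031830, 2L:6557800-6559308, plus strand) had a pooled signal of 90.5, with 21.4 in replicate 1 and 71.6 in replicate 2. COX7B (FBgn0040793, 3L:17425477-17426282, plus strand) had a pooled signal of 71.5, with 22.6 in replicate 1 and 51.5 in replicate 2. The last 3 were in the list of replicate 2 alone and not in the conservative list. The summits lay 74 bp (COX5A), 87 bp (COX8), 259 bp (COX5B) and 88 bp (COX7B) upstream of a start. For COX5A this was an inner start. Its summit, at 11819525, lay in an intron, downstream of the outermost COX5A start at 11819359, and the glo start beside it, at 11819420, also lay inside COX5A.

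In complex V, ATPsynCF6 (FBgn0016119, 3R:23355220-23356064, minus strand), which encodes coupling factor 6 of the stalk, had a pooled signal of 100.4, with 39.1 in replicate 1 and 64.0 in replicate 2. Its summit was 109 bp upstream of its start and 105 bp from that of Sec13. The peak was in the list of replicate 2 and in the conservative list. ATPsynE (FBgn0038224, 3R:14326947-14327735, plus strand), which encodes subunit e of the membrane part, had the weakest peak of the 13, with a pooled signal of 65.2, 22.4 in replicate 1 and 52.1 in replicate 2. Its score of 834 was just above 830, the lowest score in the thresholded lists, and it was in neither replicate list and not in the conservative list. The summit lay 825 bp downstream of the start, past the 3′ end of the gene, and 158 bp from the start of spn-B, a gene of meiotic recombination. Only the distance rule of 1 kb ties this peak to ATPsynE.

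**Figure D2:**
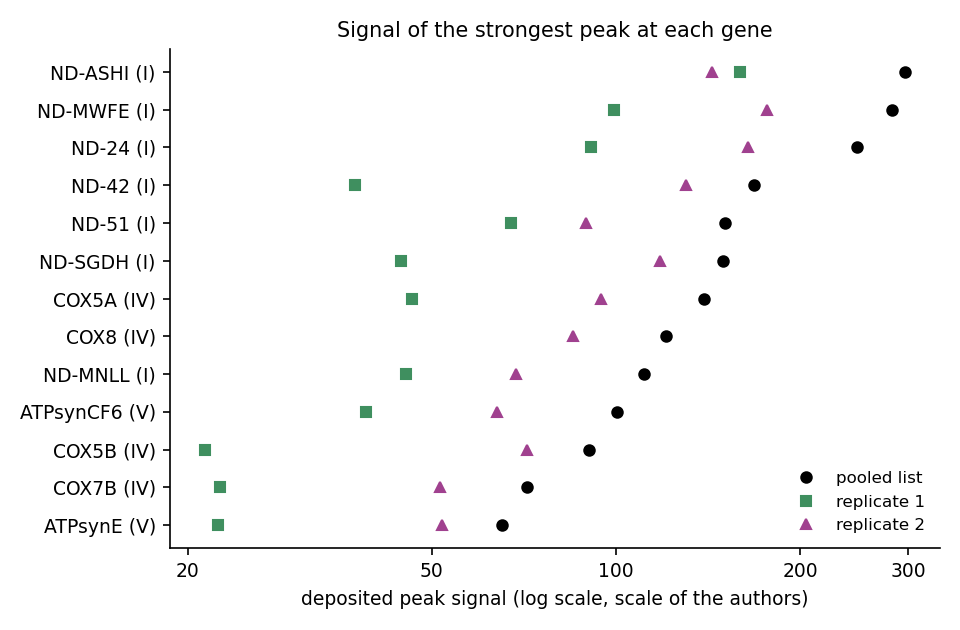
Deposited signal of the strongest peak (x axis, log scale, the authors' units) at each of the 13 genes, ordered by pooled signal from 296 at ND-ASHI to 65.2 at ATPsynE, with the complex in brackets. Circles are the pooled list, squares replicate 1 and triangles replicate 2; COX8 has no value in replicate 1, and replicate 2 lies to the right of replicate 1 at 11 of the other 12 genes.

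The peaks of the 13 genes were of ordinary strength. Their median pooled signal was 139 (range 65.2 to 296), against 134 for all 2243 protein-coding genes with a peak. Replicate 2 had the higher signal at 11 of the 12 respiratory chain genes with a value in both replicates, by a median ratio of 1.92, against a median of 1.62 and a share of 86.2% over all genes. The difference between replicates was thus general. Of the 13 peaks, 7 were in the lists of both replicates (53.8%), 5 in that of replicate 2 alone (38.5%), none in that of replicate 1 alone and 1 in neither (7.69%). Over all genes with a peak the shares were 49.5%, 34.6%, 4.73% and 11.1%. The conservative list held 9 of the 13 peaks (69.2%), against 78.1% over all genes with a peak.

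Counted in each list on its own, the respiratory chain genes also stayed near the background. The list of replicate 1 gave 7 of 88 genes with a summit within 1 kb (7.95%), against 8.96% of all protein-coding genes. The list of replicate 2 gave 12 (13.6%), against 14.9%. The conservative list gave 9 (10.2%), against 13.1%. In the list of replicate 1 the 7 genes were 6 of complex I and 1 of complex IV.

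What the 13 genes shared was a close neighbour. Every one of them had a protein-coding gene on the opposite strand with a start at most 1 kb upstream of one of its own, called a divergent neighbour here. Over all genes with a peak the share was 64.3% (1443 of 2243). At ATPsynE the peak lay 825 bp downstream of the start, on the side away from this neighbour. Of the 40 standard subunits with a divergent neighbour, 13 had a peak (32.5%, exact 95% interval 18.6 to 49.1%), against 1443 of 5052 protein-coding genes of this kind (28.6%). Of the 23 without one, none had a peak (upper bound 14.8%), against 800 of 8893 protein-coding genes (8.996%). The respiratory chain genes thus followed the split seen in all genes. Within complex I all 7 peaks fell on the 22 subunits with a divergent neighbour, in complex IV all 4 on 7, and in complex V both on 8. Complexes II and III had 1 and 2 such subunits. Divergent neighbours were present at 40 of 63 standard subunits (63.5%) and at 4 of 24 copies (16.7%), against 36.2% of all genes. Of the 20 copies without a divergent neighbour none had a peak (upper bound 16.8%, against 8.996% of all genes of this kind), and of the 4 with one none did (upper bound 60.2%, against 28.6%). Against genes of the same arrangement, the copies were thus not shown to differ.

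A gene with a divergent neighbour can be given a peak that lies nearer to the neighbour. At 12 of the 13 genes the summit lay between a start of the respiratory chain gene and a start of its neighbour, all but ATPsynE (92.3%, against 83.2% of the 1443 genes with a peak and a divergent neighbour). The starts that enclosed the summit were a median of 246.5 bp apart, from 179 bp at COX5A and glo to 522 bp at ND-ASHI and Fum1. The respiratory chain gene owned the nearest protein-coding start at 6 of the 13 peaks (46.2%), against 68.7% over all genes with a peak. Of all genes with a peak 64.3% had a divergent neighbour, while all 13 here did, so these shares are not like for like. The 6 genes were ND-24, ND-SGDH, COX5A, COX7B, COX8 and, level with CG45089, ND-MNLL. The nearest start belonged to Cchl at ND-42, CG13994 at ND-51, Fum1 at ND-ASHI, TppII at ND-MWFE, IFT52 at COX5B, Sec13 at ATPsynCF6 and spn-B at ATPsynE. Fum1 and Cchl are themselves mitochondrial genes. IFT52 encodes a protein of cilia transport and Sec13 one of vesicle coats.

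Given to the nearest start alone, peaks went to 6 of the 40 standard subunits with a divergent neighbour (15.0%), against 826 of 5052 protein-coding genes of this kind (16.4%). All 13 peaks had 2 or more protein-coding genes within 1 kb, against 760 of the 1795 pooled peaks near a protein-coding start (42.3%). This largely follows from the arrangement, as 12 of the 13 summits lay between the starts of 2 genes. The 42.3% covers peaks at genes with and without a divergent neighbour, so the 2 shares are not like for like. The summits stood close to the starts, at a median of 109 bp for the respiratory chain genes against 177 bp for all genes with a peak. Of the 13, 11 lay upstream of the nearest start of the gene (84.6%, against 84.2%) and 12 lay within 300 bp (92.3%, against 72.9%). All 13 genes had a divergent neighbour, against 64.3% of all genes with a peak, so these distances are not like for like either.

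**Figure D3:**
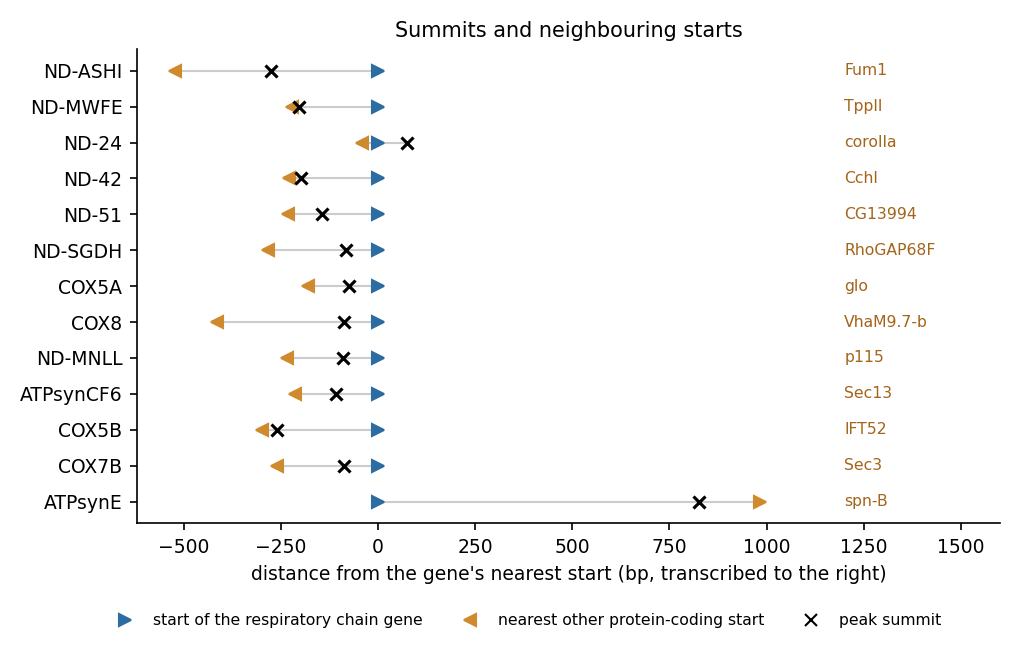
Position of the peak summit (cross) and of the nearest other protein-coding start (orange arrowhead, named at the right) relative to the nearest start of each respiratory chain gene (blue arrowhead, at 0), in bp, with each gene transcribed to the right. Arrowheads point in the direction of transcription; at 12 genes the neighbour is transcribed away to the left, at distances up to 522 bp, and at ATPsynE the summit lies 825 bp downstream near spn-B, on the same strand (CG45089, with the same starts as ND-MNLL, is not drawn).

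Of the 75 genes without a pooled peak within 1 kb, 6 had one between 1 and 2 kb away (8%), against 534 of the 11702 protein-coding genes without one within 1 kb (4.56%). Within 2 kb the count was 19 of 88 (21.6%), against 19.9% of all protein-coding genes. The 6 genes were ND-39 (1469 bp, signal 3.92), ND-B22 (1653 bp, signal 9.44), ND-B16.6 (1722 bp, signal 247), COX5BL (1890 bp, signal 90.5), COX7C (1896 bp, signal 182) and SdhC (1975 bp, signal 124). For 5 of the 6 another gene was nearer. The peak near ND-B16.6 was that of kdn, the citrate synthase gene, at 159 bp, and the peak near COX5BL, the copy of COX5B, was the one between COX5B and IFT52. Only at COX7C was the respiratory chain gene's own start the nearest protein-coding one.

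In the ranked list of the series, which includes weak and poorly repeated peaks, 56 of the 75 genes had a peak within 1 kb. The 5 highest scores below 830 were 822 at ND-B18, 760 at SdhB, 450 at COX7C, 389 at ATPsynF and 379 at ATPsynC. ND-B18, an accessory subunit of complex I, thus just missed the list, with a signal of 68.0 at 58 bp upstream, 30.0 in replicate 1 and 36.4 in replicate 2. SdhB, the iron-sulfur subunit of complex II, had a signal of 67.4 at 943 bp upstream, 33.2 in replicate 1 and 23.9 in replicate 2. On the other side of the threshold ATPsynE had a score of 834 and COX7B a score of 958, and the other 11 genes had 1000. Of the 56 scores, 53 were under 600, 2 lay between 600 and 830, and 1 was above.

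At COX6B, a further subunit of complex IV picked out after its values were seen, the ranked signal was 76.5 at 67 bp upstream, higher than at COX7B and ATPsynE, with 27.0 in replicate 1 and 50.1 in replicate 2. Its score of 145 kept it out of the thresholded list. The copy COX7AL2 had a ranked peak with a score of 1000 and a signal of 100.8, 306 bp downstream of a start, that stood in none of the thresholded lists. It was 1 of 111 ranked peaks on the main arms, out of 3196 with a score of 830 or more, that were absent from the pooled list, for a reason that the sources used here do not give. If it were counted, 1 of the 24 copies would have a peak.

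In the ranked list of the series no peak lay within 1 kb of 19 of the 88 genes (21.6%), against 16.9% of all protein-coding genes. At 12 of the 88 (13.6%, against 10.4% of all genes) the ranked lists of both replicates held none either. These included UQCR-11 and UQCR-Q of complex III and ATPsynbeta, the catalytic beta subunit of complex V. SdhA, the flavoprotein of complex II, had no peak in the series list but a signal of 59.1 in the ranked list of replicate 2. ATPsynbeta and ND-49 lie on chromosome 4, where 1 of 80 protein-coding genes had a pooled peak (1.25%).

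The strongest ranked signal within 1 kb of each gene gave a picture without a threshold. Ranked among all protein-coding genes, with genes without any such peak at 0, the median standard subunit stood at the 43.9th percentile and the median copy at the 48.0th, against 50 for all genes by construction. The order of the 2 classes depended on the replicate. Standard subunits stood at 32.5 and copies at 62.9 in replicate 1, while standard subunits stood at 55.3 and copies at 41.1 in replicate 2. The standard subunits of complex IV were the highest, with a median percentile of 84.4 (8 genes), 62.8 in replicate 1 and 85.2 in replicate 2. Complex V had a median of 58.8 (11 genes), complex II 45.8 (4 genes), complex I 33.8 (34 genes) and complex III 27.7 (6 genes). In complex I, 8 of the 34 standard subunits had no peak in the ranked list of the series, and 6 of these had none in the ranked list of either replicate.

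**Figure D4:**
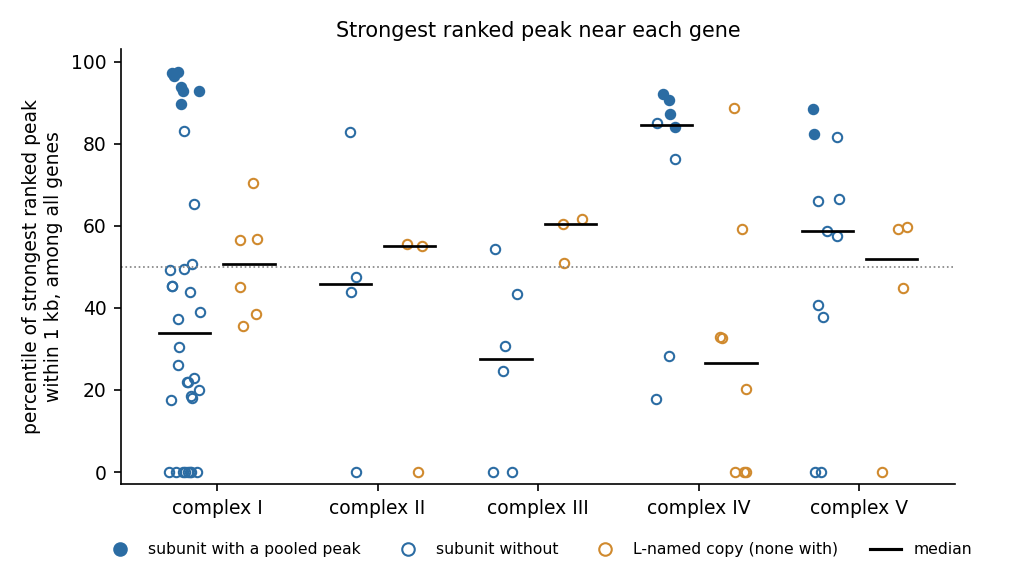
Percentile, among all protein-coding genes, of the strongest peak within 1 kb in the ranked list of the series (y axis, 0 for genes without one), for standard subunits (blue, filled where a pooled peak is present) and L-named copies (orange) of each complex. Points are genes, with horizontal scatter for legibility only, and black bars medians, which are 84.4 for the standard subunits of complex IV and 27.7 for those of complex III.

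Among the copies, 5 were named after subunits that had a peak themselves. These were ND-24L of ND-24, ND-51L1 and ND-51L2 of ND-51, COX5BL of COX5B and ATPsynCF6L of ATPsynCF6, and none of them had a pooled summit within 1 kb. Their strongest ranked signals were 45.8, 36.4, 27.0, 23.8 and 30.2, against 247.5, 150.6, 150.6, 90.5 and 100.4 at the subunits they are named after. These pairs were picked because the subunit had a pooled peak, so its higher signal was largely fixed by that choice. Over all genes of each class, the median copy stood at the 48.0th percentile and the median standard subunit at the 43.9th. The 4 copies of subunits with unrelated symbols, COX6AL and COX6AL2 of levy, COX6CL of cype and ATPsynepsilonL of sun, had no pooled peak either.

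Other genes of mitochondrial energy metabolism were counted in the same way. These lists were drawn up with earlier results of these data known, so their shares are descriptions. Of 68 genes in 6 lists of functions beside the chain, 24 had a peak (35.3%), against 16.1% of all protein-coding genes. A list of 7 chain subunits with other symbols brought this to 26 of 75 (34.7%). The 16.1% was not matched for divergent neighbours. Over all protein-coding genes 28.6% of those with such a neighbour had a peak, against 8.996% of those without. The list of the tricarboxylic acid cycle, which supplies NADH and succinate, also held Pdha and Pdhb of pyruvate dehydrogenase, which feeds the cycle. It left out the Sdh genes, which are counted above in complex II. Peaks were found at 8 of its 16 genes: mAcon1 (pooled signal 427), Fum1 (296, the peak shared with ND-ASHI), Idh3g (271), kdn (247), Idh3a (182), Pdhb (171), Idh3b (118) and Mdh2 (83.1). Of these 8 peaks, 6 were in the lists of both replicates. They included all 3 subunits of the NAD-dependent isocitrate dehydrogenase. Of the 8 genes of this list with a divergent neighbour 7 had a peak, and of the 8 without one 1 had.

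In the list of cytochrome c and other carriers, which also holds enzymes such as Dhod, 4 of 7 genes had a peak. They were the cytochrome c genes Cyt-c-p (249, strongest summit at 921 bp from its start) and Cyt-c-d (243), Etfb (147) and Dhod (93.7). All 4 still had a peak at a distance of 500 bp. Among subunits with symbols outside the selection, levy (294, 142 bp upstream) and cype (80.1, 208 bp upstream) of complex IV had a peak, 2 of 7. The gene of the alpha subunit of complex V, blw (276), was added to the lists after the files were read. It had a peak, and the gene of its catalytic partner, ATPsynbeta, did not. Of the assembly factors, 4 of 11 had a peak: CIA30 of complex I (1135, in the gap shared with CG7601), Ttc19 of complex III (153), Afg3l2 (114) and Coa8 of complex IV (81.7).

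Mitochondrial protein import had peaks at 4 of 14 genes, with Hsc70-5 (213), CG7394, the Tim14 gene (193), Tom7 (113) and Tim9a (69.7). Mitochondrial DNA maintenance and transcription had 1 of 11, mtSSB (109), which encodes a single-strand binding protein. Of the regulators, ERR (346), whose product is a nuclear receptor that controls metabolic genes, cnc (106), which encodes the counterpart of mammalian Nrf2, and Dref (94.5), whose product binds the DNA replication-related element, had a peak, 3 of 9. The ERR summit lay 180 bp upstream of its start but 6 bp from a start of Atg18a. For scale, 23 of 73 mitochondrial ribosomal protein genes had a peak (31.5%), all 23 among the 58 with a divergent neighbour and none among the 15 without. Of 92 cytoplasmic ribosomal protein genes 41 had one (44.6%), 26 of 55 with a divergent neighbour and 15 of 37 without.

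**Figure D5:**
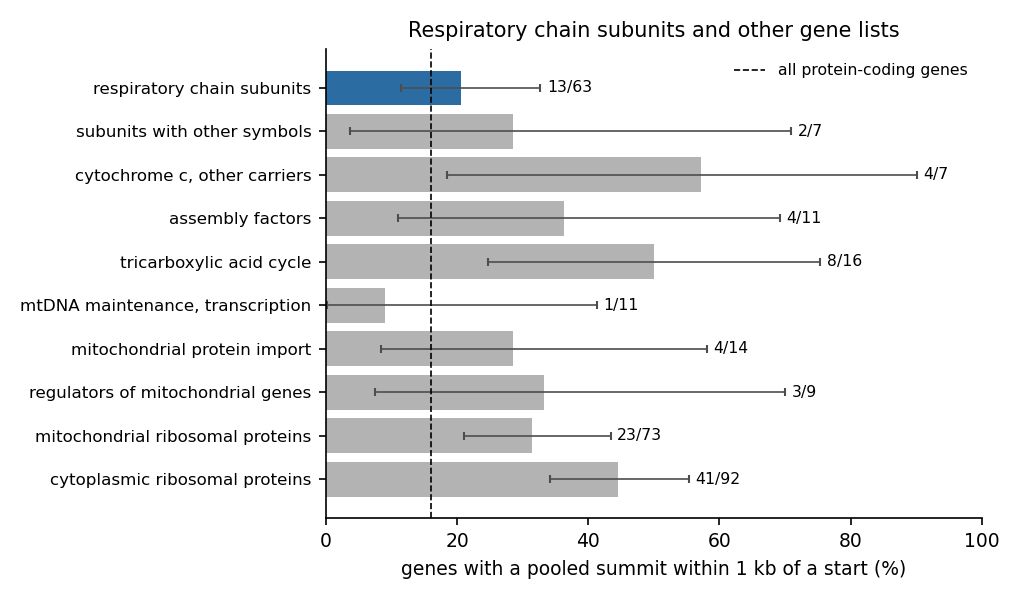
Share of genes with a pooled summit within 1 kb of a start (x axis, percent) for the standard respiratory chain subunits (blue, 13 of 63) and for 9 other lists (grey), with exact 95% intervals and counts. The dashed line is the 16.1% of all protein-coding genes, not matched for divergent neighbours. The 3 highest shares are those of the cytochrome c and carrier list (4 of 7), the tricarboxylic acid cycle list (8 of 16) and the cytoplasmic ribosomal proteins (41 of 92). The tricarboxylic acid cycle list has pyruvate dehydrogenase and leaves out the Sdh genes.

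The GC content under the peaks was low on average but varied from gene to gene, and the binding site of EGR-type factors was found at none of the 13 summits. Within 50 bp of the summit the mean GC content was 31.2 ± 8.48% (SD, 13 peaks), against 35.2 ± 11.4% at the 1583 promoter peaks (summit within 500 bp of any annotated start) and 36.0 ± 11.4% at all 3087 pooled peaks. It ran from 23.8% at ND-SGDH and ATPsynE to 54.5% at COX5B, where 92.7% of pooled peaks were at or below that value. The longest stretch of A and T only, as marked in the sequences above, had a median of 11 bp (range 4 to 18), against 10 bp (range 2 to 40) at all pooled peaks. These differences are smaller than the spread between single peaks. That spread does not measure how uncertain a mean or median over 13 peaks is, and the differences were not tested.

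The Klu/EGR letters GTGGGCG or GTGGGTG, searched on both strands, were at none of the 13 summits within 50 bp, against 139 of 3087 pooled peaks (4.503%). The DNA replication-related element TATCGATA, the shorter ATCGATA within it, the core promoter motif 1 letters GTCACAC and the E-box CACGTG were at none either. Over all pooled peaks their shares were 1.33%, 2.92%, 1.17% and 1.00%. At these low shares none among 13 says little. The GAGA letters GAGAG were at 1 summit, ATPsynE (7.69%, against 10.7%), and a tract of 8 A was at 1, ND-MNLL (7.69%, against 7.29%).

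In the promoters, from 250 bp before to 50 bp after the outermost start, the motif 1 letters were present in a larger share of standard subunits than of all genes, with or without a peak. They were in 4 of the 13 promoters of subunits with a peak (30.8%), those of ND-MWFE, COX5A, COX5B and COX7B, and in 11 of the 50 without one (22.0%). Copies had them in 1 of 24 (4.17%), and all protein-coding genes in 9.48%. The DNA replication-related element was in 1 of 13 promoters with a peak (ND-MNLL) and 8 of 50 without, in none of the 24 copies, and in 9.36% of all protein-coding genes. The Klu/EGR letters were in 1 of 13 (ND-MNLL), 1 of 50 and 1 of 24, against 6.02%. Copies had the GAGA letters in 10 of 24 promoters (41.7%), against 1 of 13 and 9 of 50 for standard subunits with and without a peak and 29.7% of all genes. The mean GC content of these promoters was 33.7 ± 4.10%, 35.0 ± 7.15% and 35.8 ± 6.13% for subunits with a peak, subunits without one and copies, against 39.1 ± 7.74% for all genes (SD over genes).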

How the data were processed

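ChIP-seq peak lists of 1 group with 2 biological replicates were used. The authors deposited 8 lists, which the labels place in dm6: for each replicate, and in pairs for the series, a ranked and a thresholded list after irreproducible discovery rate ranking. The score that the authors deposited in column 5 reaches 1000, with 830 as the lowest value in thresholded lists. The scale of the signal deposited in column 7, a peak height, is not stated. The deposited summit offset (column 10) was added to the peak start. The sources used here name no aligner or peak caller. Deeper sequencing lets more peaks be called, and depth is unknown for both libraries.

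Starts came from Ensembl release 115 without transposon genes, and sequence from the reference genome, whose arms match dm6. The strongest peak within 1 kb represents a gene; a replicate's list or signal is matched by an overlap of at least 1 bp. No test was run. Intervals are exact (Clopper-Pearson, scipy 1.17.1, Python 3.11.15), and counting was checked on simulated peaks. Every respiratory chain gene with a pooled summit within 1 kb, those with one between 1 and 2 kb, the 5 highest ranked scores below 830, copies of subunits with a peak, and all members of other lists with a peak are named. Of 82 listed genes, 73 matched by symbol, 3 by a synonym and 6 were not found. The members and lists were chosen with earlier results of these data known. Alternatives were other lists, distances, overlaps, windows and memberships.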

Additional observations from a re-analysis of the deposited data

How the results depend on the processing

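Among alternatives for the main counts and medians, 55 values stayed close (a count within 1.5 times, a median within 1 SD over genes) and 13 moved. The median signal of 139 is among the close ones by that spread, but it was 67.3 in replicate 1 alone and 91.9 in replicate 2 alone, each from that replicate's own list. Over all respiratory chain genes, leaving out 1 replicate gave 7 to 12 genes with a peak against 13, and the nearest start alone gave 6 (6.82%, against 11.5% of all protein-coding genes). For complex I the nearest start gave 3 against 7. For complex II a distance of 2 kb gave 1 against 0. For complex IV the conservative list gave 1 against 4, the peaks at or above the median signal 2, and leaving out 1 replicate 1 to 4. For complex V the conservative list gave 1 against 2, the peaks at or above the median signal 0, a distance of 500 bp 1, the nearest start 0, and leaving out 1 replicate 0 to 1. The peaks at COX5B, COX7B and COX8 thus rest on replicate 2. Leaving out all copies, a choice made after seeing the data, kept the count at 13. No copy and no assembly factor had a peak, so leaving them out could not change any count. The 55 close values include these unchanged counts, and also counts of 0 against 0 in complexes II and III. Read depth is unknown, so a missing peak cannot be told apart from one too shallow to be called. No paired analysis was possible because the samples form 1 group.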
